A study of Mus musculus with 6 samples.

Results

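The listed start of mouse chromosome 11 holds 504 of the 9001 high-confidence SP1 sites of the authors' deposited table. They were chosen by position alone, as every row on chromosome 11. The other listed sites are 4902 on chromosome 1 and 3595 on chromosome 10, so values over all listed sites are not genome-wide. The stretch runs from position 3103733 to position 20195189 (mm10), or 17.1 Mb, where the table ends. Every site is 500 bp wide. ATAC-seq measured open chromatin in neural progenitor cells (NPC, 3 libraries) and in R1 mouse embryonic stem cells (ESC, 3 libraries). Nuclei came from cryopreserved cells and were tagmented with Tn5 made in-house. Both groups carry the name R1 in their sample titles, and the labels give no treatment, time or culture condition for either. The sources used here do not say how the NPC were made or whether a group's 3 libraries are separate cultures. The deposited p-values therefore weigh differences only against library-to-library spread, possibly a technical one. The study measured how tightly transcription factors bind in the genome, and the table asks how open SP1 sites are in each cell type.

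ATAC-seq counts fragments released by the transposase Tn5, which inserts sequencing adapters into open chromatin. SP1 recognises GC-rich DNA through its zinc fingers and is best known from the GC box of promoters of broadly expressed genes. Embryonic stem cells are pluripotent and are commonly kept so with the cytokine LIF, while neural progenitors are dividing cells restricted to neurons and glia. Sites at gene ends, in gene bodies and between genes are given separately, since distal elements are the ones that most often differ between cell types.

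The table gives each site a mean signal (normalized count averaged over the 6 libraries), a log2 fold change of NPC over ESC with its standard error, and an adjusted p-value. A site was called when its adjusted p was below 0.05, rises having a positive and falls a negative fold change. Fold changes below are log2 values ± SE from the authors' deposited table. No SD stands beside a site, because single libraries were not analysed here. The median mean signal of the stretch was 7.01, about 42.1 normalized fragments over all 6 libraries, with a range of 0.806 to 99.002. Precision at single sites was limited accordingly, and the median SE was 0.81. As a check of the labels outside the stretch, all 8 sites of the pluripotency gene Tfcp2l1 fell in NPC, and 1 of the 2 sites of the radial glial gene Fabp7 rose and none fell.

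Each site belongs to the RefSeq protein-coding gene whose body holds it, or else to the nearest gene body. Within 50 kb of a gene body lay 389 sites at 97 genes. The other 115 lay farther from any gene and are named by the genes on both sides. A site near a gene need not act on it. Positions are the table's own, which may count from 0 or from 1. Exon, intron and UTR positions were not analysed here.

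Promoter sequence was taken for sites that hold the whole promoter window of a gene (RefSeq, GRCm38.p6, which is mm10: 250 bases before to 50 after a start). The first set shows the 3 protein-coding promoters whose sites rose with the smallest adjusted p. Ogdh encodes a subunit of the 2-oxoglutarate dehydrogenase of the citric acid cycle, H2az2 a histone H2A.Z variant, and Ppia the prolyl isomerase cyclophilin A. Capitals mark the 6-base GC box core, GGGCGG or its reverse complement CCGCCC, counted at every position with overlaps kept.
Ogdh, chr11:6291347-6291646, plus strand: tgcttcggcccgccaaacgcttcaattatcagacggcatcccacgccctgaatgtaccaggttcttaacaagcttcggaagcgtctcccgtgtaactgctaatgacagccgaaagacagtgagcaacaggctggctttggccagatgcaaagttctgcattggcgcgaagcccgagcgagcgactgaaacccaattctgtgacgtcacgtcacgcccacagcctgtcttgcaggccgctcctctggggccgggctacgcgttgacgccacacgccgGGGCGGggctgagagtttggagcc
H2az2, chr11:6444394-6444693, minus strand: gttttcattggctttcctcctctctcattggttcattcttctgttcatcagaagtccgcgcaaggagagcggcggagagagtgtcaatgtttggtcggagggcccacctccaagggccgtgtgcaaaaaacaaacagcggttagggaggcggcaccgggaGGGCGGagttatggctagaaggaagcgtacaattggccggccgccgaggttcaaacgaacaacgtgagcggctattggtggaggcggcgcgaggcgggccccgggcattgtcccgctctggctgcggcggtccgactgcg
Ppia, chr11:6415617-6415916, plus strand: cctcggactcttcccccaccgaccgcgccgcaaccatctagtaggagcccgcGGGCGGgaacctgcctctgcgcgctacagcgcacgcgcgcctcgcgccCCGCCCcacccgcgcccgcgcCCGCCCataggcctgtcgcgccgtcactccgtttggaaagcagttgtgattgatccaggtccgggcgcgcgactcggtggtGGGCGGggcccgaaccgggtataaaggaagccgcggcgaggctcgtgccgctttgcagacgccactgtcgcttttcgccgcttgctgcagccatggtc
The second set shows all 3 protein-coding promoters that lay inside a site that fell. Castor1 encodes an arginine sensor of the mTORC1 pathway, Hormad2 a HORMA-domain protein of meiotic chromosomes and Vstm2a an immunoglobulin-domain protein. The calls at Castor1 and Vstm2a were lost when p was recomputed from fold change and SE and after centring.
Castor1, chr11:4217975-4218274, plus strand: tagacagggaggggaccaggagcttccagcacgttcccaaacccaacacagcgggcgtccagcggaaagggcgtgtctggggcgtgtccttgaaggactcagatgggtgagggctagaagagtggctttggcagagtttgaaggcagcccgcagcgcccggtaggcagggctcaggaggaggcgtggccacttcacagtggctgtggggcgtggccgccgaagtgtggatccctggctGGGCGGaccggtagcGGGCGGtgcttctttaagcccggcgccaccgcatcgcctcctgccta
Hormad2, chr11:4441033-4441332, minus strand: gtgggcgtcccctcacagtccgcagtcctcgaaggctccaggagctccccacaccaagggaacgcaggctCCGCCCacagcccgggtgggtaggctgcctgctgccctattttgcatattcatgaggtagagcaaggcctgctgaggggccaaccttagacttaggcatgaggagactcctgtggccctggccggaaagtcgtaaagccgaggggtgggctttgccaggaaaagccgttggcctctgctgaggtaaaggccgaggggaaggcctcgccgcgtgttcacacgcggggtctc
Vstm2a, chr11:16257492-16257791, plus strand: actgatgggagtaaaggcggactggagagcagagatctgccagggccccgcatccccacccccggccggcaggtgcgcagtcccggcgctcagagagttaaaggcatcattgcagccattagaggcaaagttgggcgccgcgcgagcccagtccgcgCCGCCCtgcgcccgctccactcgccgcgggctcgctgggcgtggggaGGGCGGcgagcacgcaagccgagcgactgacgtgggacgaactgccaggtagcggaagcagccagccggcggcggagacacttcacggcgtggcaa
The last set holds a promoter with no GC box core and a called rise. Beside it stands the uncalled promoter of highest signal among those whose whole window lay inside a site. Igfbp3 encodes a carrier of insulin-like growth factors, and Actr2 encodes Arp2, a subunit of the actin-nucleating Arp2/3 complex.
Igfbp3, chr11:7213874-7214173, minus strand: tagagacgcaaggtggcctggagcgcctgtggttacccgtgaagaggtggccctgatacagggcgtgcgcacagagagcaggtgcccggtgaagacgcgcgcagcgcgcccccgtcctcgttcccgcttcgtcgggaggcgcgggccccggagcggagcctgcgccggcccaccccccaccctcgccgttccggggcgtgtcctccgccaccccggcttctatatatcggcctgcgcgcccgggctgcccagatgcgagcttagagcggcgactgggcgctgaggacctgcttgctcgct
Actr2, chr11:20112902-20113201, minus strand: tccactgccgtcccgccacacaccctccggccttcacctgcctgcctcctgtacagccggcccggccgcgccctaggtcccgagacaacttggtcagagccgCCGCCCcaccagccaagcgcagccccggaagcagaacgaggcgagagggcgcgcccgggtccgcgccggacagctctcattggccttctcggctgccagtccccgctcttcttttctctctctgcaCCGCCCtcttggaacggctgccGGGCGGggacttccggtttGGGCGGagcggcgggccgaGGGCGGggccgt
The core was present in 23 of 32 promoter windows within sites that rose (71.9%), in 3 of 4 within sites that fell (75%) and in 14 of 19 within sites that were not called (73.7%). Of all 32817 promoter windows of the RefSeq table, 35.6% held it, and of the protein-coding ones 46.2%. The windows above lie inside sites listed as SP1 sites, and SP1 is known from the GC box. Their higher share is therefore not a result about the stretch. A gene with several starts counts once for each. The match is a description of these letters and not a binding site.

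Across the whole stretch 160 sites rose in NPC (31.7%), 138 fell (27.4%) and 206 were not called. Of all 9001 listed sites 22.8% rose, 32.6% fell and 55.4% were called in either direction. The median log2 fold change was 0.08 on the stretch and -0.29 over all listed sites. No test of that difference was run, since neighbouring sites are not replicates. Called rises had a median of 2.72 and called falls a median of -3.32. Most calls were larger than a log2 change of 1, with 140 of the rises and 136 of the falls past it. A call needs a change that is large against its SE, of which the median was 0.81. The sizes of called changes thus partly follow from the threshold.

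**Figure D1:**
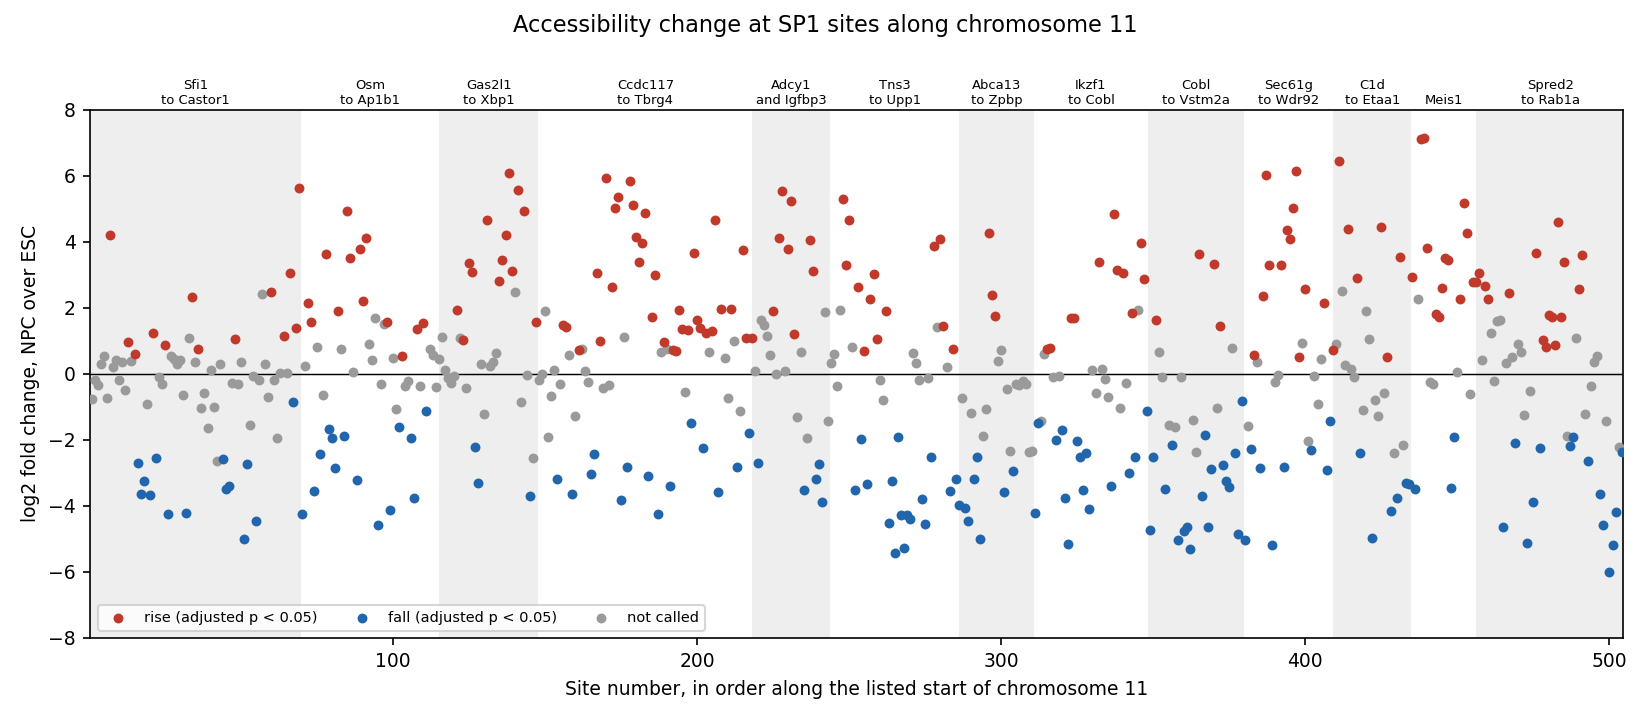
The 504 SP1 sites in chromosome order (horizontal axis, site number) against their deposited log2 fold change, NPC over ESC (vertical axis). Red points rose and blue points fell at an adjusted p below 0.05, grey points were not called, and shading separates 13 blocks named by genes at their edges. Both rises and falls occur in all 13 blocks, with few rises between Cobl and Vstm2a and few falls around Meis1.

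Most calls at gene ends, within 1 kb of either end of a gene, were rises of moderate size. Of 87 gene-end sites 35 rose, 12 fell and 40 were not called. Over all listed gene-end sites 24.1% rose, 16.1% fell and 40.2% were called. The median rise was 1.15 (2.22-fold) and the median fall -2.16 (4.47-fold). With fold changes centred on the median of all listed sites, which adds 0.29 to each, the gene-end split was 42 rises and 6 falls. Centring moves every site upwards, and the centred split over all listed gene-end sites is not given here. Before centring the gene-end median was 0.53 on the stretch and 0.18 over all listed sites. Gene-body sites away from gene ends had 67 rises and 51 falls among 186 sites (24.7% and 33.2% over all listed gene-body sites, 58.0% together). Between genes 58 of 231 sites rose and 75 fell (20.5% and 38.3% over all listed sites of that class, 58.8% together). Mean signal went with the class, at a median of 19.3 at gene ends, 7.36 in gene bodies and 5.40 between genes. The median SE was 0.39, 0.81 and 0.99 in the same order, so smaller changes could be called at gene ends.

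**Figure D2:**
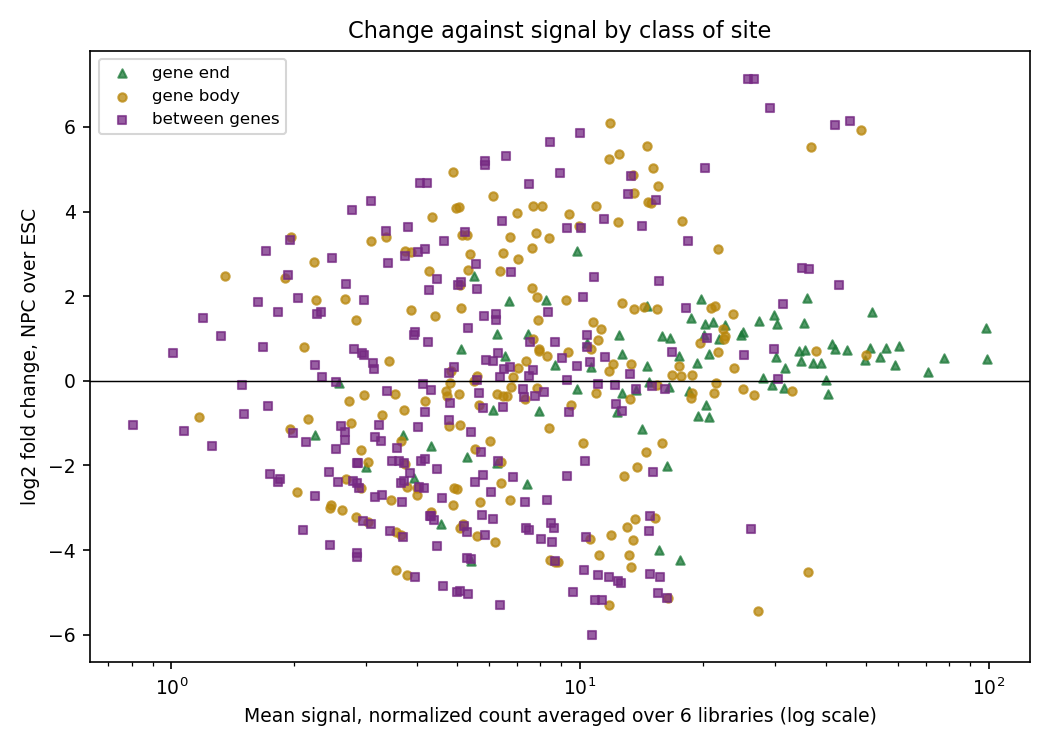
Deposited log2 fold change, NPC over ESC, against mean signal on a log scale for the 504 sites. Green triangles are gene-end sites, brown circles gene-body sites and purple squares sites between genes. Gene-end falls reach -4.25, and the other classes reach -6.00 and 7.14.

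The gene-end rises of smallest adjusted p lay at Ogdh, H2az2 and Ppia, whose promoters are printed above. The site at Ogdh rose by 1.95 ± 0.31 per the authors' deposited table (adjusted p = 1.36e-08), and an overlapping site had 1.36 ± 0.30. H2az2 had the second most open gene end of the stretch, with a mean signal of 98.4, and rose by 1.25 ± 0.21 per the authors' deposited table (adjusted p = 2.94e-08). At Ppia the pair of neighbouring sites had 1.63 ± 0.27 and 1.39 ± 0.39 per the authors' deposited table. Ewsr1, which encodes an RNA-binding protein, had 1.93 ± 0.41, and Xbp1, a transcription factor of the unfolded protein response, 1.56 ± 0.33, per the authors' deposited table. Urgcp (1.41 ± 0.34) and Zmiz2 (1.33 ± 0.35), the gene of a PIAS-like coactivator, were also among the 10 of smallest adjusted p per the authors' deposited table. The other 25 rises ranged from 0.50 at Etaa1, which encodes an activator of the kinase ATR, to 2.48 at Sec14l2. Among them were the ends of Adcy1, Mtmr3, Vwc2, Thoc5, Purb, Ccdc157, Nacad, Tbrg4, Slc35e4, Ykt6, Rnf185, Spred2, Fignl1, Gm11992 within Sun3, Morc2a, Polm, Wdr92, Tmed4, Sec61g, Nf2, Fbxo48, Rhbdd3 next to Ewsr1, and a second site at Urgcp. The rise at Sec14l2 was in a site of mean signal 5.52 that holds the promoter window of Gm51934, which is not protein-coding. The site that holds the promoter window of Sec14l2 itself was not called (-0.18 ± 0.45).

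The 12 gene-end falls lay at Ikzf1, Upp1, Fignl1, Rnf185, Hormad2, Grb10, Nipsnap1, Nefh beside an end of Ap1b1, Castor1, Tbrg4, Cnrip1 and Vstm2a. Ikzf1, which encodes the lymphoid transcription factor Ikaros, had the fall of smallest adjusted p, -4.23 ± 0.69 per the authors' deposited table (adjusted p = 2.57e-08). The next site of Ikzf1 fell by 1.48 ± 0.46 per the authors' deposited table. It lay 287 bp from a RefSeq start within the gene, but not within 1 kb of a gene end. Upp1, a uridine phosphorylase gene, had -3.99 ± 0.70, and a site at Fignl1, the gene of an ATPase of recombination repair, -2.02 ± 0.45, per the authors' deposited table. Rnf185, a ubiquitin ligase gene of the endoplasmic reticulum, had -4.25 ± 1.20 per the authors' deposited table, while the other site at the same end rose (0.88 ± 0.28). At the start of Hormad2 the deposited value was -2.43 ± 0.70, and beside that of Grb10, an imprinted adaptor gene of insulin signalling, -3.39 ± 1.13. The other 6 falls, at Nipsnap1 (-1.93 ± 0.74), Nefh (-1.13 ± 0.47), Castor1 (-0.85 ± 0.38), Tbrg4 (-1.81 ± 0.82), Cnrip1 (-2.30 ± 1.07) and Vstm2a (-0.82 ± 0.40) per the authors' deposited table, all lost their calls after centring. The last 4 of these lost them also when p was recomputed from fold change and SE.

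**Figure D3:**
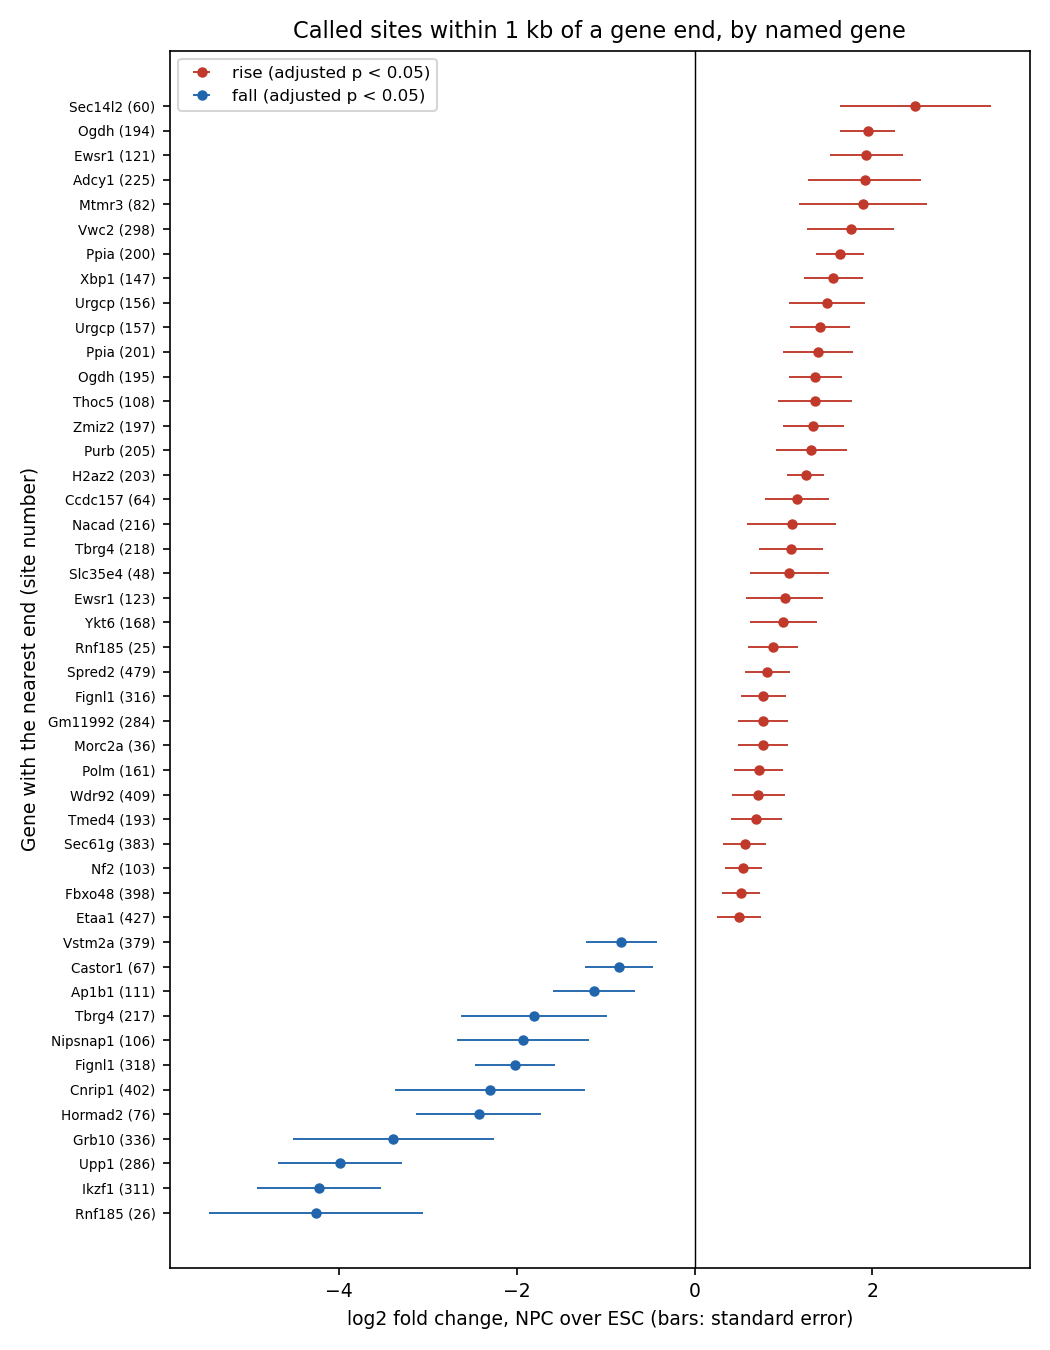
Deposited log2 fold change with its SE (horizontal axis) for 46 of the 47 called sites within 1 kb of a gene end, named by the gene with the nearest end and the site number. The 34 rises drawn (red) mostly lie below 2, and the 12 falls (blue) reach -4.25 at Rnf185.

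Many of the most open sites did not pass the test. Of the 10 uncalled sites of highest signal 9 were at gene ends, led by Drg1, which encodes a GTP-binding protein, with a mean signal of 71.1 and a log2 fold change of 0.21 ± 0.21 per the authors' deposited table. Actr2 had 0.38 ± 0.23 and Limk2 -0.30 ± 0.25 per the authors' deposited table. Tbc1d10a had 0.017 ± 0.24 and Smtn, the gene of the actin-binding protein smoothelin, 0.41 ± 0.26. The authors' deposited table gives 0.42 ± 0.27 at Patz1, the gene of a zinc-finger transcription regulator, and 0.46 ± 0.27 at Selenom, a selenoprotein gene. Inside Zpbp, the gene of a sperm protein that binds the zona pellucida, it gives -0.23 ± 0.27. At the promoter of Eif4enif1, which encodes an eIF4E-binding repressor of translation, the site lies within Gm51877 and had 0.31 ± 0.28, and Ccdc117 had -0.18 ± 0.26, per the authors' deposited table. None of these is shown to be unchanged. The values of Drg1, Patz1, Selenom, Smtn and Actr2 passed the threshold when centred.

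Of the sites within 1 kb of a RefSeq start, 78 lay nearest to the start of a protein-coding gene, and 30 of them rose and 10 fell. Over all listed sites nearest to such a start 296 of 1218 rose and 170 fell. The start of a gene that is not protein-coding was nearest at 17 others, and 10 of them rose and 2 fell. Over all listed sites of that kind 70 of 255 rose and 69 fell. The start of 8430419K02Rik, beside Meis1, had 1.81 ± 0.33 and 1.73 ± 0.42 at a pair of overlapping sites per the authors' deposited table. A site 371 bp from the start of Gm11961, 10.3 kb from Ascc2, rose by 3.51 ± 1.12 per the authors' deposited table. The site 289 bp from the start of Tug1 also lies at the end of Morc2a, a gene of chromatin silencing, and rose by 0.76 ± 0.28 per the authors' deposited table. Falls were at 1700042O10Rik inside Ddc (-2.03 ± 0.51) and near Gm11999 beside Ikzf1 (-4.23 ± 0.69) per the authors' deposited table. The latter is the gene-end fall of Ikzf1 given above. Sites of this kind that lie at gene ends are also in the gene-end counts. Where starts of opposite genes share a site, its fragments cannot be assigned to either.

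The stretch is described from its low-coordinate end in 13 blocks cut at named genes, chosen after the values were seen and given no test.

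**Figure D4:**
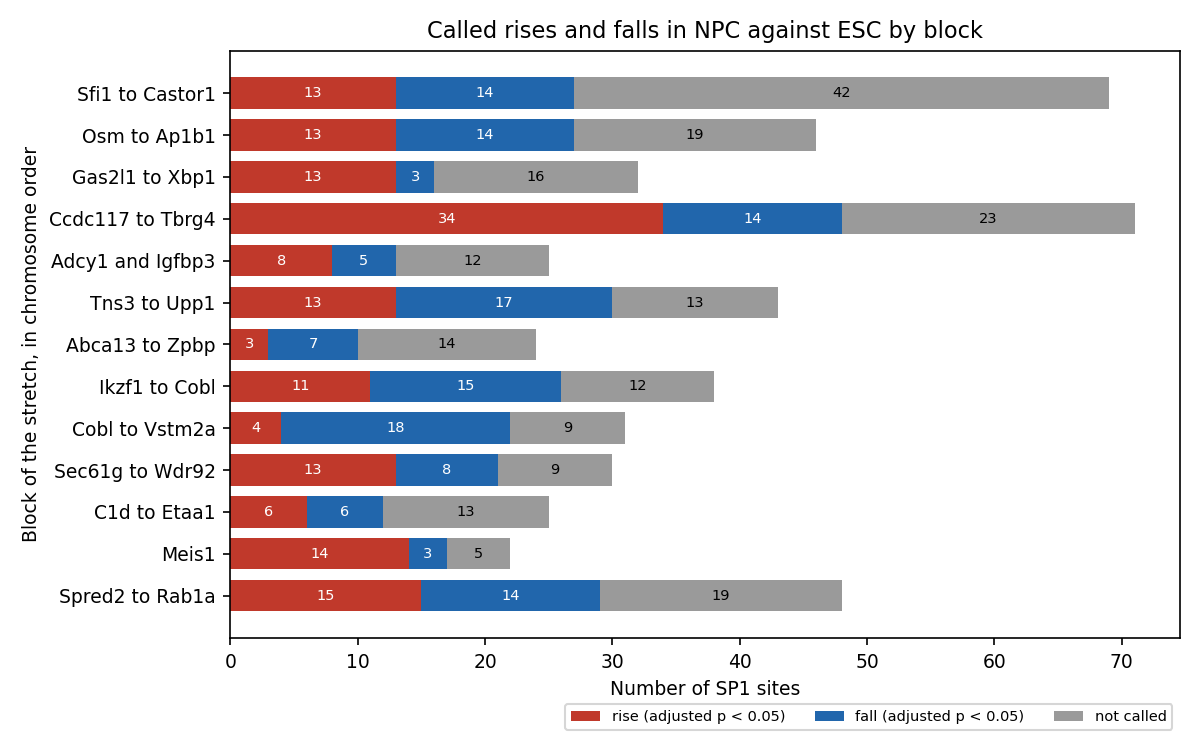
Number of SP1 sites (horizontal axis) that rose (red), fell (blue) or were not called (grey) in each of the 13 blocks, from the low-coordinate end at the top. The block from Ccdc117 to Tbrg4 had the most rises, 34 of 71 sites, and that from Cobl to Vstm2a the most falls, 18 of 31. Blocks differ in size, and the share of rises was largest in the Meis1 block, 14 of 22.

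From Sfi1 to Castor1, 13 of 69 sites rose and 14 fell, and 42 were not called. Limk2, a kinase that phosphorylates the actin-severing factor cofilin, held a group of falls inside the gene. Of its 9 sites 5 fell and 1 rose (1.23 ± 0.53). The falls of smallest adjusted p were -3.26 ± 0.61 and -3.65 ± 0.72 per the authors' deposited table, while the promoter site was not called. Smtn had 1 rise (2.33) and 1 fall (-4.21) among 6 sites per the authors' deposited table. Osbp2, an oxysterol-binding protein gene, had no rise among 10 sites and 3 falls, from -3.48 to -2.57 per the authors' deposited table, all in the high-coordinate part that holds its upstream start. At Pik3ip1, the gene of an inhibitor of PI3-kinase, the start site rose by 0.98 ± 0.40 and a site 1.69 kb from the start by 0.61 ± 0.25 per the authors' deposited table. Inside Eif4enif1 a site 9.07 kb from the gene's end rose by 4.22 ± 0.77 (adjusted p = 4.55e-07), and 8.94 kb from Pes1, a ribosome assembly gene, a site fell by 4.995 ± 1.21, per the authors' deposited table. At Castor1 the end site fell, yet the site 1.46 kb inside the gene had 1.38 ± 0.58 and the site 6.21 kb outside it 5.64 ± 1.16 per the authors' deposited table. That last value was among the 10 largest rises of the stretch.

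From Osm to Ap1b1, 13 of 46 sites rose and 14 fell. Around Lif and Osm, neighbouring genes of interleukin-6-type cytokines, the calls went both ways. A site 5.27 kb from Osm fell by 4.26 ± 1.03, and a site 29.99 kb from Lif by 3.54 ± 0.63, while the overlapping pair 22.4 and 22.7 kb from Lif rose (2.16 ± 0.82 and 1.58 ± 0.74), per the authors' deposited table, the second without a call when p was recomputed. The site inside Lif was not called (0.24 ± 0.40). Next to Hormad2, 11.9 kb away, a site rose (3.63 ± 1.27) although the gene's start fell. Mtmr3, a phosphoinositide phosphatase gene, had 4 falls and 1 rise among 6 sites, and the adjoining Ascc2, which encodes a subunit of a ribosome quality control complex, 5 rises and 1 fall among 7. The leading rise at Ascc2 lay inside the gene at 3.79 ± 0.61 (adjusted p = 1.56e-08), with others of 4.13 ± 0.88 inside and 4.92 ± 1.16 at 15.0 kb, per the authors' deposited table. The promoter of Ascc2 had 0.069 ± 0.29 and was not called. Nf2, the gene of the tumour suppressor merlin, had 2 rises and 2 falls among 8 sites. Its promoter rose little (0.55 ± 0.21), and inside the gene neighbouring sites had 1.57 ± 0.37 and -4.11 ± 0.88 per the authors' deposited table. Inside Nipsnap1, a mitochondrial protein gene, a site 9.23 kb from the end fell by 3.75 ± 0.79 per the authors' deposited table.

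From Gas2l1 to Xbp1, 13 of 32 sites rose and 3 fell. The rises were concentrated in Znrf3, a ubiquitin ligase that removes Frizzled receptors of Wnt from the cell surface. Of its 10 sites 7 rose, none fell and 3 were not called. The largest rises were 6.09 ± 1.15 (adjusted p = 3.84e-07) and 5.56 ± 1.14 inside the gene, and the site of smallest adjusted p had 3.12 ± 0.47 (1.95e-09), per the authors' deposited table. The first 5 sites of the gene body, from its low-coordinate end, all rose within 40.9 kb, with a median of 3.45. Beside it Kremen1, a receptor of the Wnt inhibitor Dickkopf, had 1 rise and no fall among 5 sites, 4.65 ± 1.17 at 1.78 kb from the gene per the authors' deposited table. Both end sites of Kremen1 were not called (0.37 ± 0.49 and 0.65 ± 0.38). Emid1, a gene of an extracellular EMI-domain protein, had 2 rises inside or within 3.27 kb of the gene and 2 falls 8.56 and 12.3 kb from it. At Xbp1 the start rose, and a site 25.05 kb away fell by 3.70 ± 1.28 per the authors' deposited table.

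From Ccdc117 to Tbrg4, 34 of 71 sites rose (47.9%) and 14 fell. This block had the most sites and the most rises, while the share of rises was largest in the Meis1 block (63.6%). Camk2b, which encodes the beta subunit of the synaptic kinase CaMKII, had 5 rises and 2 falls among 10 sites. The rise of smallest adjusted p on the whole stretch lay inside it, at chromosome 11 from 6000343 to 6000843, with a mean signal of 48.6 and a log2 fold change of 5.93 ± 0.73 (adjusted p = 4.14e-14) per the authors' deposited table. Other rises of Camk2b included 5.02 ± 1.00, 5.36 ± 1.14 and, 9.56 kb outside the gene, 5.86 ± 1.16 per the authors' deposited table. The site 693 bp inside its upstream end was not called (1.11 ± 0.64). Falls were -3.81 ± 1.07 inside the gene and, 1.95 kb from its end, -2.83 ± 0.71 per the authors' deposited table. Nudcd3, the neighbouring gene of a NudC-domain chaperone, had 8 rises and 2 falls among 12 sites. From the upstream side of Camk2b into Nudcd3, 6 sites in a row rose over 45.4 kb, from 3.39 to 5.86. Its leading rise was 4.87 ± 1.01 (adjusted p = 5.29e-06) and its falls -3.10 ± 1.16 and -4.24 ± 1.04 per the authors' deposited table.

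Farther along this block, promoter or gene-end rises of moderate size followed each other at Ddx56 (0.71 ± 0.28), an RNA helicase gene, Tmed4 (0.70 ± 0.29), a cargo receptor gene of the secretory pathway, Ogdh, Zmiz2, Ppia, H2az2 and Purb (1.31 ± 0.40), which encodes a single-stranded DNA-binding protein. Distal sites there went both ways. H2az2 had a fall of -2.24 ± 0.52 inside the gene while its start rose, per the authors' deposited table. Around Purb 3 of 6 sites rose and 1 fell, with 4.67 ± 1.23 at 5.83 kb and -3.57 ± 1.10 at 11.6 kb per the authors' deposited table. Nacad had 3.74 ± 0.73 inside the gene and 1.09 ± 0.50 at its end, both rises, and the call at the end was lost with recomputed p. Ankrd36 had no call among 5 sites, with log2 fold changes of -1.91 to 1.91 per the authors' deposited table.

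At Adcy1 and Igfbp3, 8 of 25 sites rose and 5 fell. Adcy1, a calcium-stimulated adenylyl cyclase gene of neurons, had 4 rises and no fall among 8 sites. Inside it, at chromosome 11 from 7160601 to 7161101, a site of mean signal 36.6 rose by 5.54 ± 0.74 (adjusted p = 3.5e-12) per the authors' deposited table. A further site had 4.13 ± 1.04 per the authors' deposited table. The site that holds the start of the gene was not called (0.59 ± 0.59), while an overlapping site 331 bp into the gene rose by 1.91 ± 0.64, per the authors' deposited table. Igfbp3 had 2 rises among the 3 sites within 50 kb, 5.24 ± 1.14 inside the gene and 1.22 ± 0.38 at its promoter, whose sequence is given above. Igfbp1, the adjoining carrier gene, had no site assigned. Between Igfbp3 and Tns3, 16 sites lay farther than 50 kb from either gene, and 4 rose and 4 fell. The fall of smallest adjusted p there, -3.51 ± 0.47 (adjusted p = 1.21e-11), had a mean signal of 26.2 and lay 208 kb from Igfbp3 per the authors' deposited table.

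From Tns3 to Upp1, 13 of 43 sites rose and 17 fell, and Tns3 itself had both kinds in separate parts of the gene. Tns3 encodes tensin-3, a protein of focal adhesions, and is 233 kb long on the minus strand, so that its upstream start is at the high-coordinate end. Of its 24 sites 7 rose, 11 fell and 6 were not called. On the side of the gene body nearest the upstream start, 8 of 11 sites fell and 1 rose, with a median of -4.28. On the other side of its midpoint 4 of 8 rose and 2 fell, with a median of 0.25. The 8 falls, 7 with overlapping sites joined, were consecutive over 72.7 kb, from -5.44 to -1.93. The fall of smallest adjusted p on the stretch was among them, at chromosome 11 from 8569373 to 8569873, with a mean signal of 36.1 and a log2 fold change of -4.52 ± 0.53 (adjusted p = 4.48e-15) per the authors' deposited table. The deepest of the 8 had -5.44 ± 0.84 and the next -5.29 ± 1.15 per the authors' deposited table. Both start sites were not called (0.62 ± 0.46 and 0.32 ± 0.44). Outside the other end, 7.16 kb away, a site of mean signal 36.4 rose by 2.65 ± 0.35 (adjusted p = 1.04e-11), and 138 kb away another had 3.31 ± 0.55, per the authors' deposited table. Assigned to the nearest gene end, with sites over 50 kb from an end left out, Tns3 had 3 rises and 5 falls.

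Past Tns3, 2 sites 58.7 kb and 71.0 kb from the nearest gene both fell (-3.80 ± 0.91 and -4.56 ± 0.86). Pkd1l1, a polycystin gene of left-right patterning, had 3 rises and 1 fall among 7 sites, with rises from 1.45 ± 0.65, not called with recomputed p, to 4.10 ± 1.21 per the authors' deposited table. Hus1, a gene of the DNA damage checkpoint clamp, had a single site, 4.43 kb away, which fell (-3.55 ± 1.31). Upp1 had a pair of falls upstream of its start, -3.99 ± 0.70 at 891 bp and -3.19 ± 0.57 at 1.74 kb, per the authors' deposited table.

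From Abca13 to Zpbp, 3 of 24 sites rose and 7 fell. Between Abca13 and Vwc2 lie 1429 kb with 11 sites, of which 5 fell and 2 rose, in that order along the chromosome. The falls reached -4.996 ± 1.17 (adjusted p = 3.74e-05), 646 kb from Abca13, per the authors' deposited table. The pair of overlapping rises, 4.27 ± 0.76 and 2.40 ± 0.96, lay 99.6 and 99.1 kb from Vwc2 per the authors' deposited table. Vwc2, also called Brorin, encodes a secreted BMP antagonist of the nervous system. Its start rose by 1.76 ± 0.49 per the authors' deposited table, and of its other 4 sites 1 fell, -3.57 ± 1.31. Zpbp had no rise and 1 fall among 6 sites.

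From Ikzf1 to Cobl, 11 of 38 sites rose and 15 fell. Of the falls 2 lay at Ikzf1 and 6 at Ddc, which encodes the decarboxylase that makes dopamine and serotonin. Of its 9 sites 6 fell and 2 rose. The leading falls were -5.14 ± 1.00 (adjusted p = 1.34e-06) and -3.77 ± 0.71 per the authors' deposited table, and the rises, in the middle of the gene, 1.70 ± 0.46 and 1.70 ± 0.49. At Fignl1, next to Ddc, 3 neighbouring gene-end sites had 0.78 ± 0.25, -0.10 ± 0.27 and -2.02 ± 0.45 per the authors' deposited table. The fall among them lay farthest from the gene. Grb10 had 3 falls and 1 rise among 9 sites. The leading fall, -4.11 ± 0.78 inside the gene, had an adjusted p of 1.16e-06 per the authors' deposited table. Its start site (-0.69 ± 0.64) was not called although the adjoining one fell. From Ddc to Grb10, 5 sites in a row fell over 75.2 kb.

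Cobl, which encodes the actin nucleator cordon-bleu, had 6 rises and 4 falls among 13 sites. Rises included 4.85 ± 1.01 at 7.08 kb beyond the gene's downstream end, and 3.15 ± 0.82, 3.97 ± 1.05 and 2.89 ± 0.79 inside it, per the authors' deposited table. The last 2 are overlapping neighbours, and the site 919 bp farther along fell, by 1.13 ± 0.61 per the authors' deposited table (adjusted p = 0.0473), a call lost with recomputed p and after centring. The site 2.40 kb upstream of Cobl fell by 4.73 ± 1.02 (adjusted p = 1.24e-05) per the authors' deposited table.

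**Figure D5:**
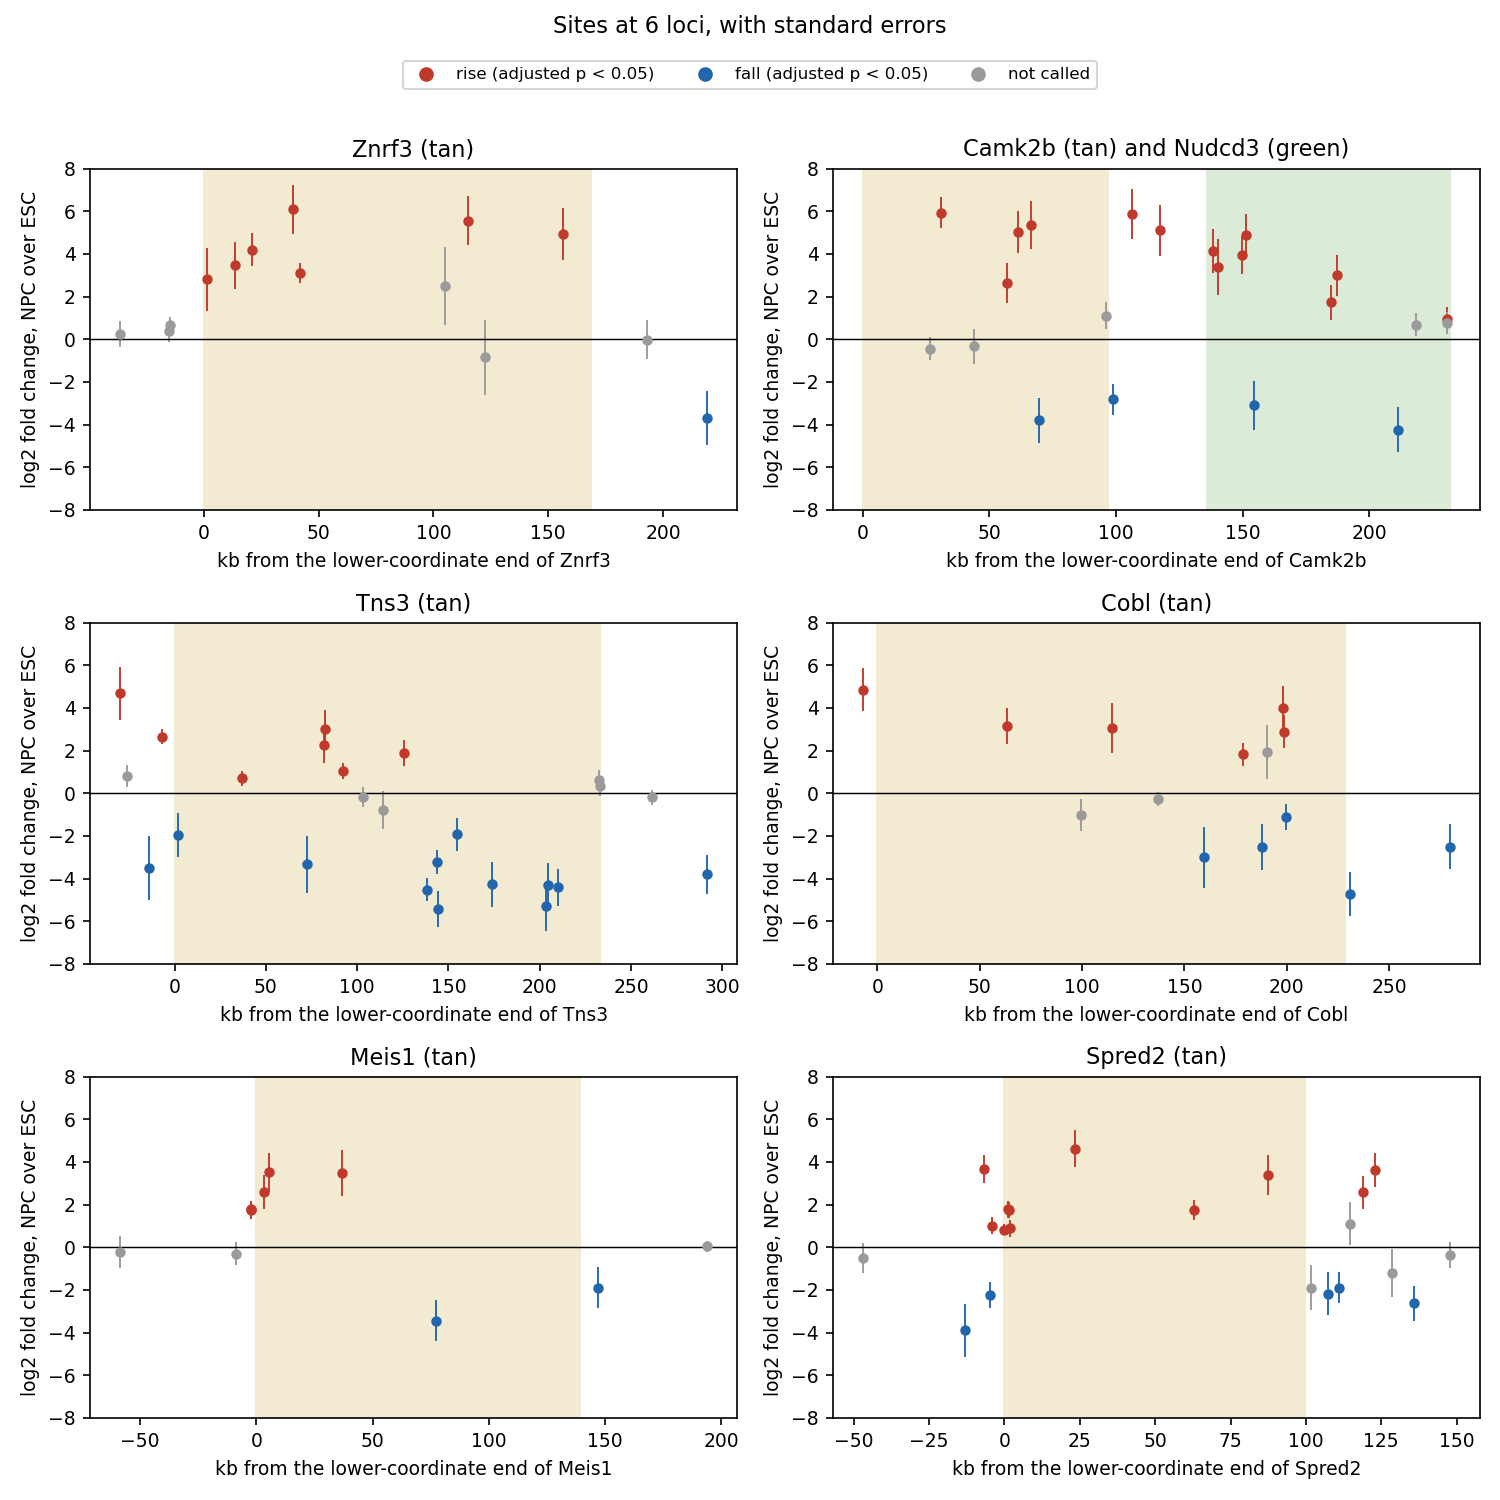
Deposited log2 fold change with its SE (vertical axes) against distance in kb from the lower-coordinate end of the named gene (horizontal axes) at Znrf3, Camk2b with Nudcd3, Tns3, Cobl, Meis1 and Spred2. Shading marks the gene bodies, with red, blue and grey as rises, falls and sites not called. Znrf3 has 7 rises and no fall, and Tns3 has 8 consecutive falls (7 with overlapping sites joined) on its high-coordinate side.

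From Cobl to Vstm2a, the longest block at 3.79 Mb, 4 of 31 sites rose and 18 fell. It held 1 gene-end site, and the median log2 fold change was -2.38, against -0.24 for all sites between genes on the stretch and -0.95 for those of all listed regions. Between Cobl and Pom121l12, 21 sites lay farther than 50 kb from a gene, and 3 rose and 11 fell. Between Pom121l12 and Vstm2a the same held for 8 sites, with 1 rise and 5 falls. The deepest fall was -5.30 ± 1.18, 1055 kb from Cobl, and others were -4.77 ± 1.01, -4.64 ± 1.01 and -5.05 ± 1.22 per the authors' deposited table. The median signal of the block was 4.59. Of the 7 opposed pairs of called sites within 2 kb on the stretch, the pair furthest apart in fold change sat here. A site at chromosome 11 from 14031326 to 14031826 rose by 3.62 ± 0.80 (adjusted p = 2.67e-05), and the site from 14032433 to 14032933, its midpoint 1.11 kb away, fell by 3.69 ± 0.79 (adjusted p = 1.74e-05), per the authors' deposited table.

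From Sec61g to Wdr92, 13 of 30 sites rose and 8 fell, with the rises on either side of Egfr among the strongest of the stretch. The Egfr gene encodes the epidermal growth factor receptor. A site between Sec61g and Egfr, 119 kb from Sec61g at chromosome 11 from 16627659 to 16628159, had a mean signal of 42.0 and rose by 6.04 ± 0.83 (adjusted p = 1.32e-11) per the authors' deposited table. On the other side, 9.71 kb from Fbxo48, an F-box protein gene, a site from 16941260 to 16941760 with a mean signal of 45.7 rose by 6.15 ± 0.83 (adjusted p = 5.52e-12), and another, 15.2 kb from Fbxo48, had 5.02 ± 0.85, per the authors' deposited table. Within Egfr 3 of 6 sites rose and 1 fell. The overlapping pair of rises had 4.36 ± 1.20 and 4.08 ± 1.24, the single rise 3.31 ± 1.35 and the fall -2.83 ± 0.80 per the authors' deposited table, while both sites near its start were not called (-0.24 ± 0.33 and -0.039 ± 0.35). A site 76.1 kb before Egfr fell by 5.18 ± 1.15, and 1 beyond Vstm2a, 60.8 kb away, by 5.02 ± 1.00, per the authors' deposited table. Sec61g, a subunit gene of the protein translocon, had a small start rise (0.56 ± 0.24), 2 falls and 1 more rise (2.35 ± 0.48) among 5 sites. Plek, the gene of the platelet protein pleckstrin, rose at 1 of 2 sites (2.59 ± 1.06). Cnrip1 had 1 rise (2.15) and 1 fall (-2.30) among 6 sites per the authors' deposited table. Ppp3r1, which encodes the regulatory subunit of calcineurin, fell at both of its sites, -2.93 ± 0.99 and -1.43 ± 0.75 per the authors' deposited table, and the second call was lost with recomputed p and after centring.

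From C1d to Etaa1, 6 of 25 sites rose and 6 fell. The third largest rise of the stretch among sites of at least median signal lay 37.1 kb from C1d, a gene of an RNA exosome cofactor, at 6.46 ± 1.12 (adjusted p = 3.57e-08) per the authors' deposited table. Another site, 146 kb from C1d, had 4.41 ± 0.87 per the authors' deposited table. Etaa1 rose inside the gene by 4.45 ± 0.88 and at its end by 0.50 ± 0.25 per the authors' deposited table, the end site not being called with recomputed p. Away from it, sites fell at 55.6 kb (-4.98 ± 1.21), 21.9 kb (-4.17 ± 1.33) and 169 kb (-3.75 ± 0.91) per the authors' deposited table.

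In the Meis1 block 14 of 22 sites rose and 3 fell, and the median log2 fold change was 2.44. Meis1 encodes a TALE-class homeodomain transcription factor active in the developing nervous system and in blood. The largest rises of the stretch were an overlapping pair 299 kb beyond its downstream end, 7.14 ± 1.13 and 7.13 ± 1.13 per the authors' deposited table, with mean signals of 26.7 and 25.8. Within 50 kb of the gene 5 of 8 sites rose and 2 fell. The 5 rises, 4 with overlapping sites joined, were consecutive over 39.7 kb, from the start of 8430419K02Rik into the downstream part of Meis1. Those inside the gene included 3.50 ± 0.91 and 3.46 ± 1.08 per the authors' deposited table. The falls lay in the upstream part of the gene (-3.45 ± 0.95) and 7.83 kb upstream of it (-1.90 ± 0.96), where the call was lost with recomputed p and after centring. No site lay within 1 kb of its ends. Farther upstream, sites at 92.7, 101 and 130 kb rose, with 2.27 ± 0.88, 5.19 ± 1.19 and 4.26 ± 1.30 per the authors' deposited table, and the most open site of that side, with a mean signal of 30.5, had 0.047 ± 0.26.

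From Spred2 to Rab1a, 15 of 48 sites rose and 14 fell. Spred2 encodes an inhibitor of ERK signalling. It had 9 rises and 4 falls among 16 sites, and all 6 sites inside the gene rose. From 4.16 kb before the gene, 8 sites in a row, 6 with overlapping sites joined, rose over 92.0 kb. The start rose by 0.82 ± 0.25 and the largest rise inside the gene was 4.61 ± 0.86 (adjusted p = 6.92e-07) per the authors' deposited table. Before the gene, at 6.86 kb, a site rose by 3.65 ± 0.67, while those at 4.799 kb and 13.04 kb fell (-2.26 ± 0.61 and -3.90 ± 1.24), per the authors' deposited table. Between Meis1 and Spred2, 24 sites lay farther than 50 kb from a gene, and 9 rose and 3 fell. An overlapping pair of high signal there, 400 kb from Spred2, rose by 2.68 ± 0.35 and 2.28 ± 0.30 (mean signals 34.9 and 43.1) per the authors' deposited table. Falls on that side included -4.64 ± 0.86 and -5.13 ± 1.00 per the authors' deposited table.

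At the end of the stretch, 2 of 11 sites at Actr2 rose and 4 fell. The rises, 2.56 ± 0.78 and 3.61 ± 0.81 per the authors' deposited table, lay on its downstream side towards Spred2. The falls included the deepest of the stretch among sites of at least median signal, -5.998 ± 1.15 (adjusted p = 5.94e-07) at 32.6 kb upstream, with -4.58 ± 1.02 and -3.64 ± 1.07 before it, per the authors' deposited table. Towards Rab1a, a GTPase gene of transport from the endoplasmic reticulum to the Golgi, 3 of 4 sites fell, led by -5.17 ± 1.16 per the authors' deposited table.

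Grouped by role, genes with sites within 50 kb gave the following counts, to be read beside shares of 22.8% rises and 32.6% falls and the median of -0.29 over all listed sites. The LIF-type cytokine genes Lif and Osm had 2 rises and 2 falls among 5 sites (median 0.24). Igfbp3 and Grb10, of the insulin-like growth factor axis, had 3 rises and 3 falls among 12 (median -0.36). The Wnt receptor regulators Kremen1 and Znrf3 had 8 rises and no fall among 15 (median 2.81), with 7 of the rises at Znrf3. Egfr and Spred2, of receptor tyrosine kinase signalling, had 12 rises and 5 falls among 22 (median 0.95). The list of neural transcription factors was Meis1 alone (median 1.77). The 7 neuronal and synaptic genes with sites had 18 rises and 15 falls among 47 (median 0.39). Within that list 9 of the rises lay at Camk2b and Adcy1 and 6 of the falls at Ddc. Rasl10a, also on that list, has its promoter window in an uncalled site counted under Gas2l1 (1.11 ± 0.71).

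Blood and immune genes (Ikzf1, Pik3ip1 and Plek) had 3 rises and 2 falls among 9 sites (median 0.39), the falls both at Ikzf1. The 7 genes of the cytoskeleton and adhesion had 15 rises and 25 falls among 68 (median -0.31), with 11 of the falls at Tns3 and 5 at Limk2. Genes of RNA processing and ribosome assembly had 8 rises and 4 falls among 18 sites (median 0.61), and the 5 mitochondrial genes 2 rises, both at Ogdh, and 3 falls among 10 (median -0.47). Sf3a1, on the RNA processing list, has its promoter window in the site counted at Ccdc157, which rose by 1.15 ± 0.36. DNA repair and chromatin genes had 6 rises and 4 falls among 19 (median -0.10). Genes of the secretory pathway and unfolded protein response had 5 rises and 7 falls among 25 (median -0.18). No list was tested against others.

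Of 185 pairs of adjacent called sites, 117 went the same way (63.2%). All 16 overlapping pairs did, and these can share fragments. Of 20 pairs that did not overlap and had midpoints within 2 kb, 13 did and 7 did not. The 7 opposed pairs were at Rnf185, Castor1, Zmiz2, Purb, Cobl, Spred2 and in the gap before Pom121l12, and the falls of the Castor1 and Cobl pairs lost their calls with recomputed p and after centring. At Spred2 they were 641 bp apart, with -2.26 ± 0.61 and 1.01 ± 0.39 per the authors' deposited table. At 2 to 10 kb 31 of 55 pairs went the same way, at 10 to 50 kb 36 of 63, and beyond 50 kb 21 of 31 (67.7%). The share thus did not fall steadily with distance. No such share was computed over all listed sites, and whether the stretch differs from them was not tested.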

How the data were processed

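ATAC-seq libraries of NPC and ESC were compared by the authors, 3 of each. The submitters' processing notes name BWA 2.1, Picard 2.23.8, MACS2 2.2.7, SAMtools 1.9, DESeq2 and mm10, and the model behind the table is not given in the sources used here. The authors' deposited table holds, per site, a mean signal over all 6 libraries, a log2 fold change with its standard error, a p-value and an adjusted p-value. The name it was deposited under gives its direction, NPC over ESC. Totals per library were not analysed here, so depth per library is unknown, and no model could be fitted again. The deposited p-values were at or below those recomputed from the fold change over its SE at all 9001 sites (median ratio of recomputed to deposited 2.35).

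Sites were assigned to RefSeq protein-coding genes (GRCm38.p6) with Python 3.11.15 and pandas 2.3.3, and recomputed p-values were adjusted by Benjamini-Hochberg over all listed sites. The calculation was checked on simulated data. Named were the 29 genes with 5 or more sites, the 10 largest rises and falls at or above the median signal of all listed sites, called gene-end sites, the 10 uncalled sites of highest signal and members of the gene lists with sites. The sites of 1 gene are in the counts but are not reported here. Other sites of the same loci were named after their values were seen. The sites, lists and blocks were chosen with earlier results of these data known. Alternatives were stricter thresholds, recomputed p-values, centring, a signal minimum, 1 site per overlap group (468 groups), and other distances.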

Additional observations from a re-analysis of the deposited data

How the results depend on the processing

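Over the whole stretch the count of rises (160) was 121 to 165 under the alternatives tried, and that of falls (138) was 71 at sites of at least median signal and 98 to 136 otherwise. With fold changes centred, 165 sites rose and 98 fell, and the median was 0.37. The 35 gene-end rises were 22 with a log2 change above 1, and 26 to 42 otherwise. The 12 gene-end falls were 7 at an adjusted p below 0.01, 6 when centred, 7 within 500 bp of a gene end, and 8 to 10 otherwise. Centring turned the sign of 2 uncalled sites, to 0.11 at Ccdc117 and 0.056 at Zpbp. It also gave a call to 5 of the 10 uncalled sites of highest signal. Of the 298 called sites 39 lost their call with recomputed p-values (16 rises and 23 falls) and 44 when centred (4 rises and 40 falls). Both alternatives ended the gene-end falls at Castor1 (recomputed adjusted p = 0.0552), Tbrg4 (0.0589), Cnrip1 (0.0651) and Vstm2a (0.0816), and the falls given above at Cobl, Ppp3r1 and upstream of Meis1. Recomputed p-values alone ended the gene-end rises at Nacad and Etaa1 and the smaller rises given at Lif and Pkd1l1, and centring alone the falls at Nipsnap1 and Nefh. Assignment to the nearest gene end changed 6 of 58 counts of rises or falls at named genes by over 1.5 times, and a limit of 20 kb changed 4. No paired analysis was possible because the table holds 1 value per site and none per library, and for the same reason no library could be left out. Low signal limits single sites, mainly outside gene ends, but only 8 of the 12 gene-end falls had at least the median signal. A site that was not called is not shown to be unchanged.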
